A study of Rattus norvegicus with 6 samples.

Results

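Angptl4 and Pdk4 and 7 genes linked to them were followed in cultured synovial fibroblast-like cells of arthritic rats. The 9 genes were Angptl4, Pdk4, Cpt1a, Plin2, Ucp2 and Fabp4, which are known targets of the peroxisome proliferator-activated receptors (PPARs), and the receptor genes Ppara, Ppard and Pparg. They were picked by symbol from the 16499 symbols of the sequenced transcriptome, with the most abundant transcript row standing for each gene. Angptl4 and Pdk4 were chosen because they rose in these libraries, so their values are given as a description and carry no p-value. The other members and the lists of related genes were chosen with earlier results of these data known. Their p-values are therefore no independent test.

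Cells of 2 female Wistar rats with collagen-induced arthritis, taken before any therapy, were each divided over 3 culture media, which gave 6 libraries. Of the 3 media, 1 was the control medium with FBS, which is fetal bovine serum, 1 held serum from animals that had received no needle stimulation (MS-), and 1 held serum of animals taken at day 18 of mechanical stimulation with a rotated needle (MS+), which the labels call acupuncture. The 3 comparisons ask what rat serum does relative to FBS, and what the serum of stimulated animals does relative to that of unstimulated ones. The replicate is the rat that gave the cells, and the number of animals behind each serum was not stated. Rat serum and FBS differ in species as well as in treatment, and these cannot be told apart. If MS- serum was drawn before therapy and MS+ serum at day 18, as the methods state, stimulation, sampling day and stage of disease cannot be told apart either. The labels and the study describe the donors of MS- serum in more than 1 way, as healthy, as arthritic and untreated, and as sampled before therapy.

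PPARs are nuclear receptors that bind fatty acids and their derivatives, pair with a retinoid X receptor (RXR) and sit on DNA at direct repeats of a short half-site. PPARα and PPARδ are best known for switching on fatty acid oxidation in liver, heart and muscle, and PPARγ for driving fat cell formation. Angptl4 encodes a secreted inhibitor of lipoprotein lipase. Pdk4 encodes a kinase that shuts the pyruvate dehydrogenase complex and thereby spares glucose while fatty acids are burned. Cpt1a encodes the gate through which long-chain fatty acids enter mitochondria. Several of these targets are also known to answer to glucocorticoids, fasting or low oxygen, so none of them is a marker of PPARs alone.

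The promoter stretches of Angptl4, Pdk4 and Cpt1a, the members with the largest rises over FBS, are shown because the members are grouped by a shared family of transcription factors. Each holds the 250 bases before the RefSeq start in assembly GRCr8, 5′ to 3′ on the strand of the gene, with motif matches in capitals.

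Angptl4, chr7:15258682-15258931, minus strand: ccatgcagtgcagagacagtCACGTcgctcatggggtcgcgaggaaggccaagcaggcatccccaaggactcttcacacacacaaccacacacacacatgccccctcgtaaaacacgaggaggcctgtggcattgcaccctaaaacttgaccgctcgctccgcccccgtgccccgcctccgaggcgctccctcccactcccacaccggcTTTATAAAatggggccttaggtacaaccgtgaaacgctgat

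Pdk4, chr4:34568330-34568579, minus strand: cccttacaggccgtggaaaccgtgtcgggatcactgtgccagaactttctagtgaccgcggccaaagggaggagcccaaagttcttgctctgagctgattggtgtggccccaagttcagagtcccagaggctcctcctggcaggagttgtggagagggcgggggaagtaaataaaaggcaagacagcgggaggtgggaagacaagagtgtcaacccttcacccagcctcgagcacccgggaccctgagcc

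Cpt1a, chr1:209995910-209996159, plus strand: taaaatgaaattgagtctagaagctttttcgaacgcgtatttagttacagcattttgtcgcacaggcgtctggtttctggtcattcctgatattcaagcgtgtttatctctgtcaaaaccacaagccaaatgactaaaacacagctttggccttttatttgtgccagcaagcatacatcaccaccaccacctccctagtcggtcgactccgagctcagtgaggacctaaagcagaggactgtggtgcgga

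Both strands were searched for the half-site AGGTCA, a direct repeat of it with 1 free base between the copies, the glucocorticoid palindrome (AGAACA, 3 free bases, TGTTCT), the forkhead site GTAAACA, the hypoxia core ACGTG and the TATA box TATAAA, the last added after the windows had been seen. The capitals in Angptl4 mark ACGTG on the opposite strand, 230 bases before the start, and TATAAA on either strand, 41 and 39 bases before it, in overlapping matches. The Pdk4 and Cpt1a windows held none of these letters and carry no capitals. Among 33469 rat promoter windows of the same length, 14.1% held the half-site, 0.0508% the repeat, 0.012% the glucocorticoid palindrome, 3.21% the forkhead site, 16.6% the hypoxia core and 12.9% the TATA box. RefSeq entries were found for 7 of the 9 members, in 9 windows. Ppard and Fabp4 had none. Of the others, only a window of Plin2 held a match, to ACGTG on both strands. With mismatches allowed, the closest match to the repeat in the Angptl4, Pdk4 and Cpt1a windows had 4. A match as close was held by 74.5% of all windows. Sequence outside the windows was not searched. These matches describe letters and no binding was measured here.

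The libraries held 5463316 to 5991889 reads, and 9678 to 9749 transcript rows reached 1 CPM, a read count scaled to library size, in each. A floor of 3 reads corresponded to 0.491 to 0.551 CPM, which covers counting error only. All 10 fibroblast markers had reads, Col1a1 and Vim among the highest, and their summed level was 80454 to 87674 CPM in FBS, 62483 to 64796 CPM in MS- and 70482 to 73467 CPM in MS+, although Prg4, the lubricin of the synovial lining, was at 1.27 to 3.32 CPM. Limma without a block called 1 of the 10 against FBS, Pdpn, which fell in both rat sera. Adding a term for the rat, limma called 3 of these genes higher and 2 lower in MS+, and 5 lower in MS-, the collagens Col1a1, Col1a2 and Col3a1 with Thy1 and Pdpn. DESeq2 called 2 lower in MS+ and 4 lower in MS-, beside 811 and 535 of all 9820 rows. Of all rows, limma called 9.61% and 4.81% in these comparisons, and 28.2% and 20.5% with the rat term. The part of this shift of fibroblast markers in the results on the members was not tested. Of 8 adipocyte markers 6 had reads, with a summed level of 1.15 to 3.62 CPM and with Cidec and Retn at 0. Of 10 macrophage markers 5 had reads, with a summed level of 14.1 to 20.5 CPM that was mostly Cd14, and Ptprc, Itgam and Cd163 were at 0. Of 7 endothelial markers 5 had a row and 3 had reads, summing to 0.362 to 2.20 CPM, with Cdh5 and Tie1 at 0. Levels are averages over the culture, so fewer cells of a type and less RNA per cell cannot be told apart.

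Angptl4 was nearly silent in FBS and clearly present in both rat sera. Its transcript NM_199115, on chromosome 7 of rn4 from 16261623 to 16267852 on the minus strand, measured 0.491 and 0.497 CPM in the FBS libraries of rats 1 and 2. It measured 17.6 and 22.2 CPM in MS-, and 24.9 and 34.3 CPM in MS+. The groups did not overlap in any comparison, and in the cells of both rats the order was FBS, MS- and MS+. Since each FBS library held just 3 reads of Angptl4, which is the floor itself, the ratios to FBS are imprecise. In the cells of rat 1, MS+ held 50.6 times the FBS level (95% exact counting interval 17.0 to 248.5), and in those of rat 2, 69.0 times (23.2 to 338). The ratios of MS- to FBS were 35.8 and 44.7. The counting intervals leave out the spread between cultures.

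**Figure D1:**
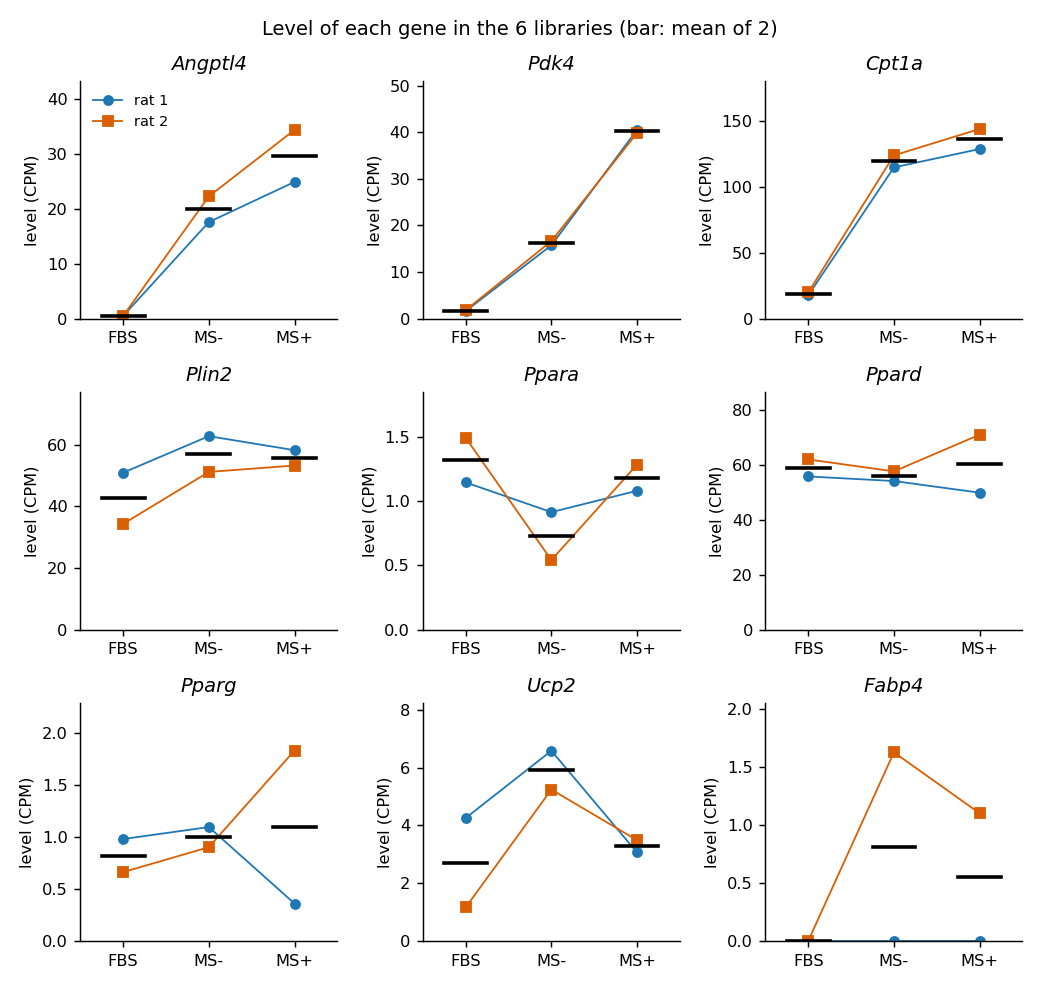
Level in CPM of the 9 genes (vertical axes from 0, each with its own range) in the 3 culture conditions, with circles for cells of rat 1, squares for cells of rat 2, lines joining the cells of 1 rat and bars for the mean of 2 libraries. Angptl4, Pdk4 and Cpt1a lie far above FBS in both rat sera, while the rows of the 3 receptors show no such step. The Pparg row covers only 1 form of that gene.

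Pdk4 showed the same order with a wider step between the sera. Its transcript NM_053551, on chromosome 4 of rn4 from 30235296 to 30245298 on the minus strand, measured 1.64 and 1.82 CPM in FBS, 15.7 and 16.6 CPM in MS-, and 40.5 and 39.8 CPM in MS+. The libraries of a group lay close together, with SDs of 0.132, 0.635 and 0.503 CPM (n = 2), and no groups overlapped. The MS+ level was 24.8 and 21.8 times the FBS level in the cells of rats 1 and 2, and the MS- level 9.61 and 9.12 times. Between the rat sera, MS+ held 2.58 times the MS- level in rat 1 (95% exact counting interval 2.00 to 3.34) and 2.39 times in rat 2 (1.87 to 3.09). For Angptl4 the corresponding ratios were 1.42 (1.08 to 1.86) and 1.54 (1.22 to 1.95). Counting intervals hold the sampling of reads alone. Replicates differed well beyond that, so these intervals are too narrow for the spread between cultures and are no test.

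Differences across all genes were fitted with limma on log2(CPM + 1), a scale that understates the change of low genes. On this scale Angptl4 was higher than in FBS by 4.34 in MS+ and by 3.80 in MS-, and MS+ exceeded MS- by 0.54, each with an SE of 0.22 (n = 2 per group). For Pdk4 these differences were 3.92, 2.65 and 1.26, each with an SE of 0.16. Among 9820 rows tested, ordered by their rise, Angptl4 was number 1 against FBS in both rat sera, and Pdk4 was number 3 in MS+ and number 4 in MS-. Between MS+ and MS-, Pdk4 was number 31 and Angptl4 number 487.

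**Figure D2:**
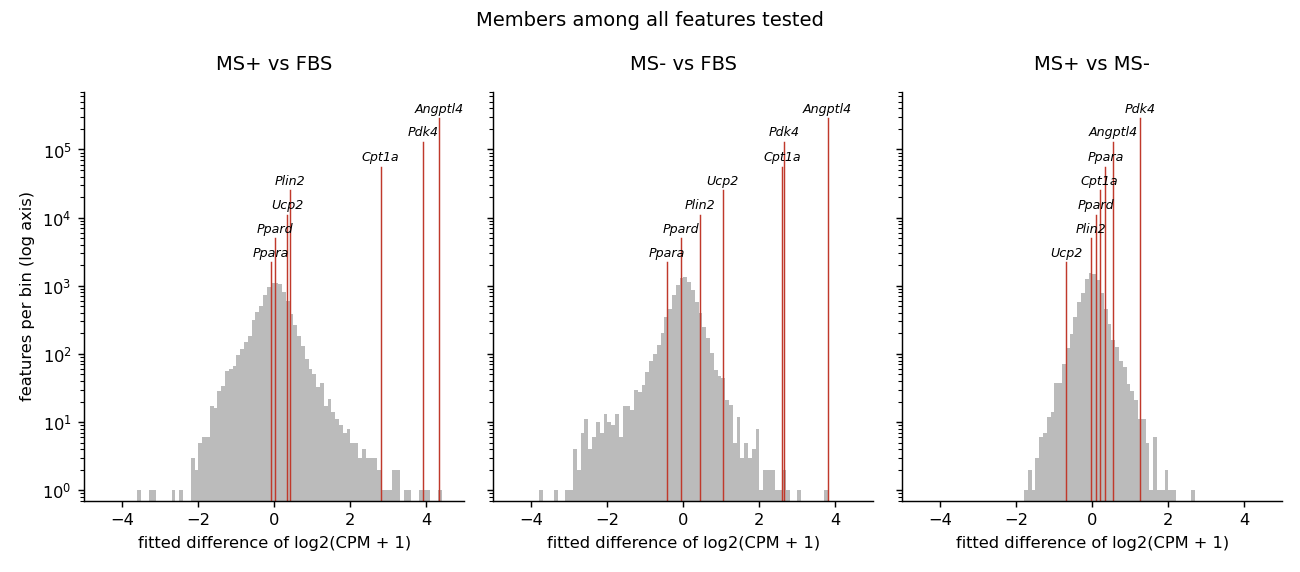
Histograms of the fitted difference in log2(CPM + 1) for all 9820 rows tested (bins of 0.1, log vertical axis) in the 3 comparisons, with red lines at the 7 members tested, whose heights only stagger the names. Angptl4 at 4.34, Pdk4 at 3.92 and Cpt1a at 2.80 stand in the right tail of MS+ against FBS, and the other members near the middle.

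Cpt1a rose in both rat sera. Its transcript NM_031559, on chromosome 1 of rn4 from 205852800 to 205912972 on the plus strand, measured 17.7 and 19.9 CPM in FBS, 115 and 124 CPM in MS-, and 129 and 144 CPM in MS+. It was higher in MS+ than in FBS by 2.80 ± 0.11 on the log2 scale (SE; limma adjusted p = 0.000298), with ratios of 7.29 and 7.24 in the cells of the 2 rats. It was higher in MS- than in FBS by 2.61 ± 0.11 (limma adjusted p = 0.00096), with ratios of 6.50 and 6.23. The largest adjusted p under any alternative was 0.0112 and 0.0184. Between MS+ and MS- the difference was 0.19 (95% interval -0.081 to 0.46, limma adjusted p = 0.509), with ratios of 1.12 and 1.16. Against FBS, Cpt1a was number 14 of the 9820 rows in MS+ and number 5 in MS-.

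Of the 7 members other than Angptl4 and Pdk4, 5 passed the filter on low values, and Cpt1a was the 1 called in MS+ against FBS and in MS- against FBS. Over all rows, 9.61% were called in MS+ against FBS, 4.81% in MS- against FBS, and 0.0204% in MS+ against MS-, where no member was called. For MS+ against MS- no tool called a member, limma, edgeR and DESeq2 included, and none of the 5 had an unadjusted limma p below 0.05. With the rat as a block in the fit, 28.2%, 20.5% and 10.1% of all rows were called, and the members called became 2 in MS+ against FBS, with Plin2 added, and 3 in MS- against FBS, with Plin2 and Ucp2 added.

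Plin2 encodes perilipin 2, the coat protein of lipid droplets in many cell types. Its transcript NM_001007144 measured 50.9 and 34.3 CPM in FBS, 62.7 and 51.2 CPM in MS-, and 58.2 and 53.2 CPM in MS+. All 4 rat-serum libraries lay above both FBS libraries, by little in the case of rat 1. The difference from FBS was 0.40 ± 0.20 in MS+ (limma adjusted p = 0.239) and 0.43 ± 0.20 in MS- (limma adjusted p = 0.274). Blocking on the rat gave adjusted p-values of 0.0196 and 0.0185 in limma, the lowest of all alternatives, whose highest were 0.685 and 0.662. The 2 FBS libraries differed by more than the mean distance between FBS and either serum: the group means were 42.6, 57.0 and 55.7 CPM in FBS, MS- and MS+.

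Ucp2 encodes an uncoupling protein of the inner mitochondrial membrane that is induced by fatty acids in many tissues. Its transcript NM_019354 measured 4.26 and 1.16 CPM in FBS, 6.59 and 5.24 CPM in MS-, and 3.06 and 3.49 CPM in MS+. MS- stood above the other groups without overlap, and FBS and MS+ overlapped. MS- exceeded FBS by 1.03 ± 0.41 on the log2 scale, which passed the unadjusted rule of the study (p below 0.05, at least 2-fold, mean of at least 1 CPM) but not the adjusted threshold (limma adjusted p = 0.213, and 0.0245 to 0.541 over the alternatives, the lowest with the rat as a block). Over all rows, 3.62% passed that unadjusted rule in MS- against FBS. The within-rat differences were 0.53 in rat 1 and 1.53 in rat 2, so their size differed. For MS+ against FBS they pointed in opposite ways, -0.37 and 1.05.

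Fabp4, the fatty acid binding protein typical of fat cells and macrophages, was close to absent. Its transcript NM_053365 had 0 reads in both FBS libraries and in the cells of rat 1 in every medium. Reads came from rat 2 alone, with 9 in MS- (1.63 CPM) and 6 in MS+ (1.10 CPM). A count of 0 allows up to 3 reads, so levels of 0.491 to 0.549 CPM would not have been detectable. The gene did not pass the filter and was not tested. The macrophage and adipocyte markers of the same libraries are given above, and their part in these reads was not tested.

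**Figure D3:**
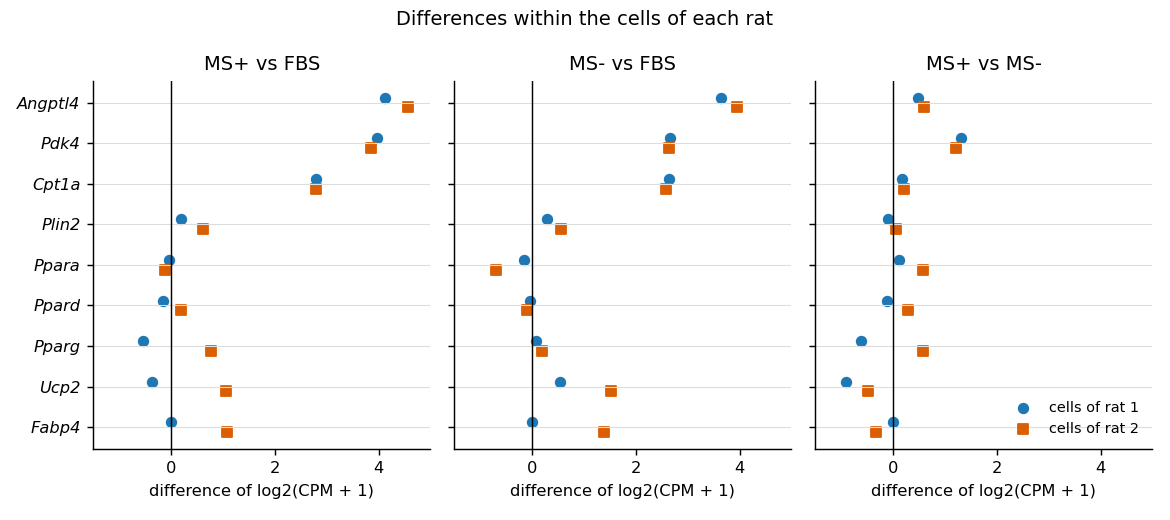
Difference in log2(CPM + 1) between 2 culture conditions within the cells of 1 rat (horizontal axis), for the 9 genes and the 3 comparisons, with circles for rat 1 and squares for rat 2. The 2 rats lie close together for Pdk4 and Cpt1a, and on either side of 0 for Ppard, Pparg and Ucp2 in MS+ against FBS.

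Among the rows of the 3 receptors, that of Ppard was the one at a sizeable level, and its level overlapped between all groups. The row of Pparg covers only part of that gene, as given below, so the level of Pparg is not known. Ppard (NM_013141) measured 55.8 and 62.0 CPM in FBS, 54.1 and 57.7 CPM in MS-, and 49.9 and 71.0 CPM in MS+. MS+ differed from FBS by 0.017 (95% interval -0.39 to 0.42, limma adjusted p = 0.96). MS- differed from FBS by -0.073 (-0.48 to 0.33, limma adjusted p = 0.855), and MS+ from MS- by 0.090 (-0.32 to 0.50, limma adjusted p = 0.866).

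Ppara (NM_013196) was near the limit of detection, at 1.15 and 1.49 CPM in FBS, 0.915 and 0.542 CPM in MS-, and 1.08 and 1.28 CPM in MS+, from 3 to 9 reads per library. The MS- libraries were the lowest, and MS+ and FBS overlapped. No comparison passed, with a difference of -0.43 ± 0.28 between MS- and FBS (95% interval -1.08 to 0.22, limma adjusted p = 0.432).

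Pparg had 3 overlapping rows, of which NM_001145367 held all the reads and the other 2 were at 0 in every library. Because the counting discarded reads shared between transcripts, this row covers only what is unique to 1 form, and its level is not that of the gene. It measured 0.982 and 0.663 CPM in FBS, 1.10 and 0.904 CPM in MS-, and 0.360 and 1.84 CPM in MS+, from 2 to 10 reads. The MS+ libraries spanned all others. The row did not pass the filter and was not tested.

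The other genes of these pathways were taken from lists by role, of which 89 genes had a row, 82 had reads and 65 could be tested. Between MS+ and FBS, 18 rose and 2 fell, which is 30.8% of those tested beside 9.61% of all rows. Between MS- and FBS, 9 rose and 0 fell, which is 13.8% beside 4.81%. With the rat as a block, 22 rose and 3 fell in MS+ against FBS, and 17 rose and 5 fell in MS- against FBS, beside 28.2% and 20.5% of all rows. Limma called 0 between MS+ and MS-, where 10 had an unadjusted p below 0.05, beside 1446 of all 9820 rows. DESeq2 called 2, beside 123 of all rows. Limma with the rat as a block called 5 higher and 3 lower, beside 10.1% of all rows. The median fitted difference was 0.22, 0.21 and 0.09 for the 3 comparisons, beside medians over all rows of 0.000782, 0.014 and -0.0058. Against FBS, fewer of these genes were called in either serum when any 1 library was left out. Calls over all rows fell in the same fits, so this drop is not particular to these genes.

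**Figure D4:**
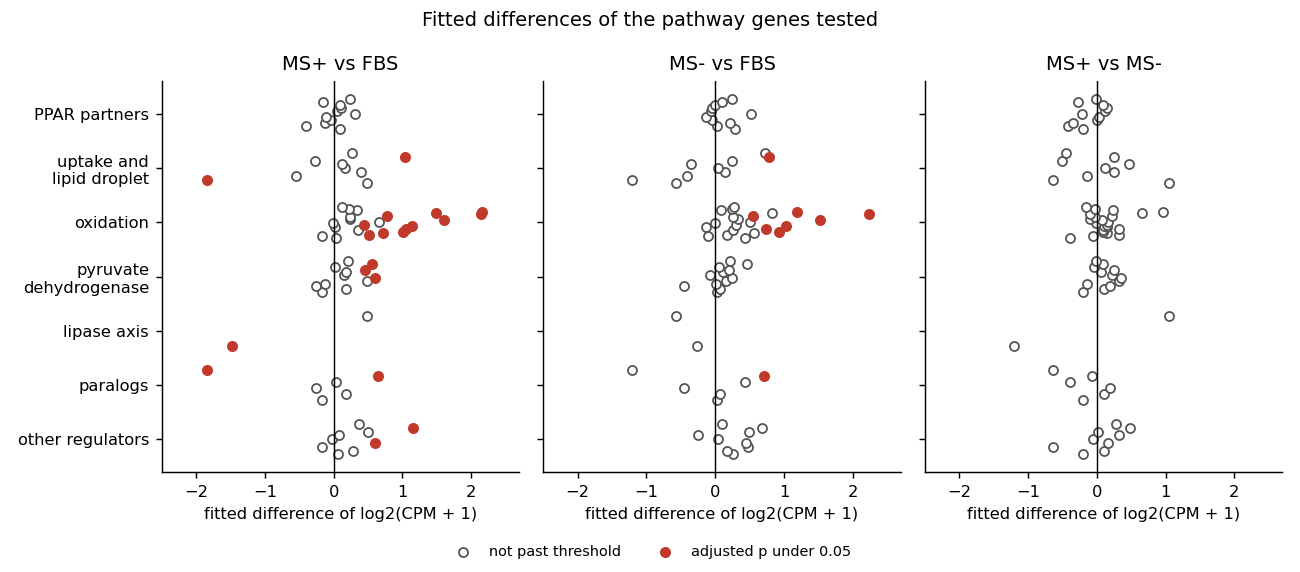
Fitted difference in log2(CPM + 1) (horizontal axis) for each pathway gene tested, by list (rows; a gene may stand in 2 lists) and comparison (panels), filled red where the limma adjusted p is below 0.05. The red points lie mostly on the right of 0 in the oxidation list, 11 of 22 genes in MS+ and 7 of 22 in MS- against FBS, and none is red between the rat sera.

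Partners of the receptors, meaning RXRs, coactivators and corepressors, were not among the genes called. Limma called 0 of 11 tested in each comparison, beside 9.61%, 4.81% and 0.0204% of all rows. An unadjusted limma p below 0.05 was found for 0, 0 and 1 of them. DESeq2, limma-voom and edgeR without a block also called 0. With the rat as a block, limma and edgeR called Ncoa2, a coactivator, higher in MS- than in FBS (adjusted p = 0.0404 and 0.0321), and edgeR called Rxrb lower in MS+ than in FBS (adjusted p = 0.0494, and 0.060 in limma). Without it their limma adjusted p was 0.259 and 0.192. Pprc1, a coactivator of the PGC-1 family, was at 101 to 113 CPM. Rxra measured 21.6 and 22.2 CPM in FBS, 26.5 and 27.7 CPM in MS- and 24.7 and 22.4 CPM in MS+. Ppargc1a, which encodes PGC-1α, had 0 to 2 reads per library.

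The oxidation list held the enzymes that Cpt1a feeds, and here the counts were largest. Of 22 genes 11 rose in MS+ and 7 in MS- against FBS, none fell, and the list's median was 0.47 and 0.38. Of all rows, 9.61% and 4.81% were called. Limma fitted with a term for the rat called 12 and 9 higher, beside 28.2% and 20.5% of all rows. Between MS+ and MS- that fit called 2 higher, beside 10.1%. Fewer passed against FBS when any 1 library was left out, as over all rows. By library, the list's median difference from the FBS mean was 0.48 and 0.28 in MS-, and 0.41 and 0.48 in MS+. Acot2, a mitochondrial acyl-CoA thioesterase, measured 15.6 and 10.4 CPM in FBS, 32.9 and 28.2 CPM in MS-, and 70.4 and 51.9 CPM in MS+. It rose by 2.16 ± 0.23 in MS+ (limma adjusted p = 0.00526) and 1.19 ± 0.23 in MS- (limma adjusted p = 0.0343), and its near-identical paralog Acot1 makes both counts uncertain. Its levels followed the order FBS, MS- and MS+ in the cells of both rats, as those of Angptl4 and Pdk4 did.

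Ech1, which shifts double bonds so that unsaturated fatty acids can be oxidised, measured 28.6 and 24.0 CPM in FBS, 73.2 and 81.3 CPM in MS- and 78.2 and 85.3 CPM in MS+, a rise of 1.60 ± 0.13 (limma adjusted p = 0.00314) and 1.52 ± 0.13 (limma adjusted p = 0.00239). The list's most abundant genes were the 2 subunits of the trifunctional protein. Hadha rose by 1.05 ± 0.12 in MS+ (limma adjusted p = 0.00746), while Hadhb differed by 0.016 ± 0.13 (limma adjusted p = 0.95).

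**Figure D5:**
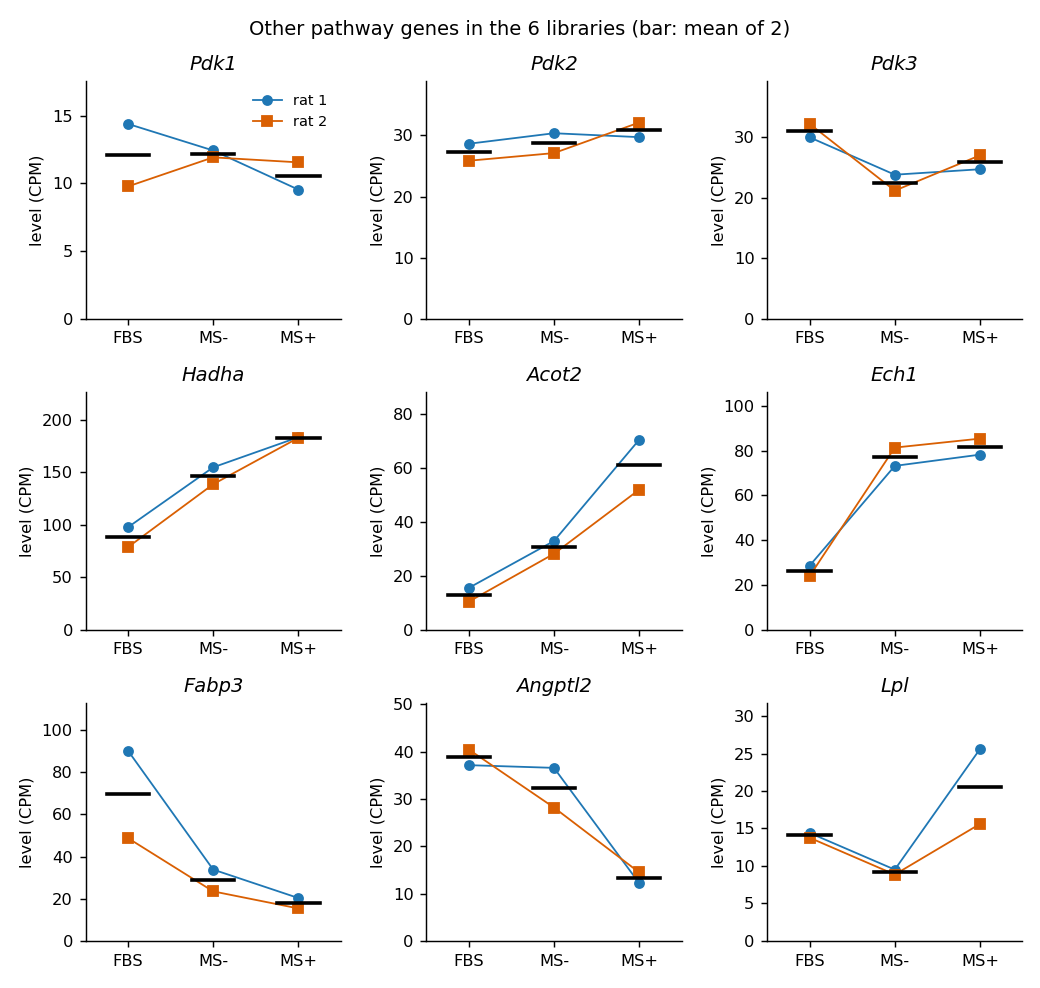
Level in CPM (vertical axes from 0, each with its own range) of 9 pathway genes that are not members, in the 3 culture conditions, with circles for cells of rat 1, squares for rat 2 and bars for the mean of 2 libraries. Pdk1, Pdk2 and Pdk3 show no rise like that of Pdk4, Hadha, Acot2 and Ech1 lie above FBS in both rat sera, and Fabp3 lies below it.

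Among genes of fatty acid uptake and lipid droplets, 1 of 9 tested rose and 1 fell in MS+ against FBS, and 1 rose and 0 fell in MS-. Of all rows, 9.61% and 4.81% were called in these 2 comparisons. DESeq2 added 1 fall in MS-. The fit blocked on rat called 2 higher and 2 lower in MS+, and 1 higher and 4 lower in MS-. That fit called 28.2% and 20.5% of all rows. Between MS+ and MS- it called 2 higher and 1 lower, beside 10.1%. The falls in MS- with the block were in Fabp3, Lpl, Vldlr and Slc27a1, a fatty acid transporter. Pnpla2, the lipase that starts triglyceride breakdown, measured 74.5 and 68.1 CPM in FBS, 132 and 115 CPM in MS- and 138 and 156 CPM in MS+. It rose by 1.03 ± 0.12 in MS+ (limma adjusted p = 0.00641) and 0.78 ± 0.12 in MS- (limma adjusted p = 0.0161). Fabp3, the heart-type fatty acid binding protein, measured 90.2 and 48.7 CPM in FBS, 33.8 and 23.5 CPM in MS-, and 20.4 and 15.4 CPM in MS+, and the groups did not overlap. MS+ was below FBS by a difference of -1.85 ± 0.31 (limma adjusted p = 0.0182). MS- differed from FBS by -1.20 ± 0.31 (limma adjusted p = 0.0857, 1.51e-05 with the rat as a block, and 1.2e-06 to 0.334 over all alternatives), and MS+ from MS- by -0.64 ± 0.31 (limma adjusted p = 0.409, 0.00854 with the block, and up to 0.731). Its row overlaps Zcchc17, and the 2 FBS libraries stood well apart. Vldlr, a lipoprotein receptor and the most abundant of the list, measured 158 and 146 CPM in FBS, 119 and 119 CPM in MS- and 178 and 154 CPM in MS+. It was not called by limma without a block, and with it was lower in MS- than in FBS (adjusted p = 0.0114) and higher in MS+ than in MS- (adjusted p = 0.00334). Cd36, a fatty acid carrier and a classical PPAR target, had at most 0.181 CPM, and Plin1, Cidec, Pck1 and Adipoq, all typical of fat or liver cells, were at or near 0.

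The target of Pdk4 and its relatives can be read together. Pdk1 measured 14.4 and 9.78 CPM in FBS, 12.4 and 11.9 CPM in MS- and 9.55 and 11.6 CPM in MS+. Pdk2 measured 28.6 and 25.9, 30.4 and 27.1, and 29.7 and 32.1 CPM in the same order, and Pdk3 30.0 and 32.2, 23.8 and 21.1, and 24.7 and 27.0 CPM. Limma without a block called none of these 3 kinases in any comparison, where 1 of them, Pdk3, had an unadjusted p below 0.05, in MS- against FBS. Pdk3 differed there by -0.45 ± 0.13 (limma adjusted p = 0.117, 0.031 with the rat as a block, and 0.0218 to 0.399 over all alternatives). The differences of Pdk1, Pdk2 and Pdk3 between MS+ and FBS were -0.16 (95% interval -0.68 to 0.35), 0.18 (-0.13 to 0.49) and -0.26 (-0.57 to 0.06). Of 12 genes of the pyruvate dehydrogenase step, 3 rose in MS+ against FBS and 0 fell, beside 9.61% of all rows called. Pdha1, a catalytic subunit, rose by 0.60 ± 0.08 (limma adjusted p = 0.0106). Brp44l, now Mpc1, a subunit of the mitochondrial pyruvate carrier, rose by 0.56 ± 0.11 (limma adjusted p = 0.0258). Dld, the enzyme shared with related complexes, rose by 0.45 ± 0.11 (limma adjusted p = 0.0441). DESeq2 called 2 of the 12 higher, and fewer passed when any 1 library was left out, as over all rows. In MS- against FBS none of the 12 was called by limma, edgeR or DESeq2 without a block, with 3 at an unadjusted limma p below 0.05. Once the rat was a block, limma called 2 higher, Pdha1 and Brp44l, and 1 lower, Pdk3, beside 20.5% of all rows. Pdk4, an inhibitor of this complex, and Pdha1, Brp44l and Dld were all higher in MS+ than in FBS.

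Around Angptl4, most relatives and partners were too low to test. Of the Angptl family, Angptl1 and Angptl6 stayed at or below 0.721 CPM. Angptl2, a secreted glycoprotein of the same family, measured 37.2 and 40.5 CPM in FBS, 36.6 and 28.2 CPM in MS- and 12.3 and 14.5 CPM in MS+. It fell by 1.47 on the log2 scale in MS+ against FBS (SE 0.17, limma adjusted p = 0.00679), the opposite direction to Angptl4. Between MS+ and MS- it differed by -1.21 ± 0.17 (limma adjusted p = 0.0917, 0.000217 with the rat as a block, and 0.000147 to 0.456 over all alternatives), which passed the study's unadjusted rule, as 1.24% of all rows did. Lpl, the lipase that Angptl4 inhibits, measured 14.4 and 13.8 CPM in FBS, 9.51 and 8.86 CPM in MS- and 25.6 and 15.6 CPM in MS+. MS+ exceeded MS- by 1.05 ± 0.24 (limma adjusted p = 0.144, 0.00257 with the block, and 0.00133 to 0.468 over all alternatives). In the fit without a block, Lpl passed the unadjusted rule but not the adjusted threshold. Gpihbp1, which anchors the lipase on capillary walls, had no reads.

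Among the paralogs of the members, 1 of 6 rose against FBS in each serum, and 1 fell in MS+, which was Fabp3. Of all rows, 9.61% were called in MS+ and 4.81% in MS-. Under the rat block, Fabp3 and Pdk3 fell in MS-, 2 of the 6, where 20.5% of all rows were called in either direction. The gene that rose, Cpt1c, the brain-type relative of Cpt1a, measured 41.1 and 43.4 CPM in FBS, 63.5 and 76.6 CPM in MS- and 75.1 and 59.3 CPM in MS+, a rise of 0.65 ± 0.15 in MS+ (limma adjusted p = 0.0442) and 0.71 ± 0.15 in MS- (limma adjusted p = 0.0493). The call in MS- was lost with limma-voom, with DESeq2 size factors, with no filter on low values and without any 1 library, and its adjusted p was 0.000618 to 0.246 over all alternatives. The call of Cpt1c in MS+ was likewise lost with no filter on low values and without any 1 library. The muscle form Cpt1b was low, at 1.28 to 4.94 CPM. Of 9 other regulators known to act on Angptl4 or Pdk4, 2 rose in MS+ against FBS, beside 9.61% of all rows called. DESeq2 called 1 of the 9 there, and fewer passed when any 1 library was left out, as over all rows. In MS- limma, edgeR and DESeq2 without a block called 0 of them, and 4 had an unadjusted limma p below 0.05. With the rat as a block, limma called 3, beside 20.5% of all rows. Klf15, a glucocorticoid-induced factor of fasting metabolism, measured 17.8 and 14.6 CPM in FBS, 27.3 and 25.5 CPM in MS- and 30.4 and 45.3 CPM in MS+, and rose by 1.16 ± 0.21 in MS+ (limma adjusted p = 0.022). Foxo4, a forkhead factor restrained by insulin signalling, rose by 0.60 ± 0.13 (limma adjusted p = 0.0352). The most abundant, Nr3c1 and Hif1a, which encode the glucocorticoid receptor and an oxygen-regulated factor, differed between MS+ and FBS by 0.065 ± 0.14 and -0.019 ± 0.10.

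Genes with a profile like Angptl4 or Pdk4 were found by Pearson's r over the 6 libraries among 8368 rows with a mean of at least 5 CPM. With 3 groups of 2 libraries a high r mostly reflects the order of the groups, and 176 rows exceeded 0.95 with Angptl4 and 209 with Pdk4, so these values describe and do not test. Closest to Angptl4 were Cdkn1a (r = 0.998), an inhibitor of the cell cycle, Cpt1a (0.997), Phlda3 (0.996), Tmem127 (0.995) and Acadl (0.994), a dehydrogenase of fatty acid oxidation. Cdkn1a measured 239 and 247 CPM in FBS, 657 and 718 CPM in MS-, and 786 and 786 CPM in MS+. Closest to Pdk4 were LOC100125364, now C1h6orf120 (r = 0.998), Sidt2 (0.998), RGD1307399, now Tmem230 (0.997), Etfdh (0.996), which passes electrons from fatty acid oxidation to the respiratory chain, and RGD1304827, now Pomgnt2 (0.995). Sidt2 measured 237 and 248 CPM in FBS, 373 and 371 CPM in MS-, and 475 and 479 CPM in MS+. Angptl4 and Pdk4 correlated with each other at 0.976, which placed Pdk4 at number 51 for Angptl4 and Angptl4 at number 79 for Pdk4. Plin2 had an r of 0.69 with Angptl4 and 0.66 with Pdk4, and Ppard 0.014 and -0.0026.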

How the data were processed

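RNA of 6 cultures was measured, 2 rats by 3 media. Low-quality reads had been removed by the sequencing company. Per the labels and methods, the authors aligned reads to the rat genome rn4 with Bowtie2 2.1.0 and counted them per transcript with HTSeq 0.5.4p3, which drops reads shared between transcripts. Strand use was not stated. The deposited signal is CPM scaled with TMM factors of edgeR, in 17221 rows of which 4567 are 0 throughout. Dividing by the value of 1 read gave whole reads for 100% of values within 1e-06 reads, and depth is taken from these.

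Rows with both replicates of at least 1 group at 1 CPM were kept (9820). Differences in log2(CPM + 1) were fitted with limma 3.58.1 in R 4.3.3 (lmFit, eBayes with trend, two-sided, group as the only term, all 6 libraries), with Benjamini-Hochberg adjustment over all rows and a threshold of 0.05. The fit was also run on simulated reads that held no difference between rats, so that run does not test it under the spread between rats seen here. The planned unit was CPM. The table was recorded as a signal because its columns are TMM-scaled, and the test was that planned for normalized values. Alternatives were limma-voom, edgeR 4.0.16 and DESeq2 1.42.0 on the recovered reads, other scalings, filters and a pseudocount of 0.1, sums of rows per symbol, each library left out, and the rat as a block. Alternatives of scaling and left-out libraries kept the same rows. The labels name the same 2 rats in each medium, and rat differences correlated across rows between media (r = 0.616, 0.494 and 0.59), so the replicate numbers pair the libraries. Replicates differed well beyond sampling noise (chi-square per degree of freedom 13.7 to 15.4). P-values of fits without a block measure the spread between cells of 2 rats. With the rat as a block, they measure the spread left after the difference between the rats is taken out. Neither measures the spread between the animals that gave serum.

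The members and gene lists were chosen with earlier results of these data known. All members were named. Of each list, at most the 3 largest rises and 3 largest falls past the adjusted threshold in a comparison (past the study's unadjusted rule where none passed) and the most abundant 2 genes were named, with the Pdk and Angptl genes. Some genes that this rule names are not reported here. The 5 rows most like Angptl4 and Pdk4 were also named. Rxra, Rxrb, Ncoa2, Slc27a1, Col3a1, Thy1, Ppargc1a, Cd36, Plin1, Cidec, Pck1, Adipoq, Gpihbp1 and Cpt1b were added after their values were seen. Promoters and newer names come from RefSeq, assembly GRCr8, in which accessions of 15958 rows (92.7%) were found. Transcript lengths were not used here, so levels of different genes are not compared per length.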

Additional observations from a re-analysis of the deposited data

How the results depend on the processing

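The direction of Angptl4, Pdk4 and Cpt1a held in every comparison under all 17 alternatives. The difference of Angptl4 between MS+ and FBS ranged from 4.11 to 5.90 and between MS- and FBS from 3.63 to 5.32, and that of Pdk4 from 3.87 to 4.53 and 2.60 to 3.21. The replicate block (the rat) gave 2 members called in MS+ against FBS and 3 in MS- against FBS, 22 pathway genes in MS- against FBS and 8 in MS+ against MS-, and edgeR with the block gave 2, 3, 21 and 9. Of all rows, limma with the block called 28.2% in MS+ against FBS, 20.5% in MS- against FBS and 10.1% in MS+ against MS-. DESeq2 called 2 pathway genes in MS+ against MS-, beside 123 of all 9820 rows. The block ended no call of a member. Leaving out 1 library at a time gave 1 to 15 pathway genes in MS+ against FBS, 3 to 5 in MS- against FBS and 0 in MS+ against MS-, where the library left alone in its group was assumed to vary like the others. Library by library, the difference of Plin2 between MS+ and MS- then ran from -0.17 to 0.12, that of Ppara between MS+ and FBS from -0.19 to 0.023, and that of Ucp2 between MS+ and FBS from -0.30 to 0.98. Ppard ran from -0.23 to 0.27 between MS+ and FBS, from -0.15 to 0.00149 between MS- and FBS, and from -0.16 to 0.34 between MS+ and MS-, and library totals turned its difference between MS+ and FBS to -0.031. None of these was called in either setting, and the cause was not tested. Other scalings moved the median of all rows by less than 0.05. Depth limits Ppara, Fabp4 and the FBS level of Angptl4. The Pparg row is limited by depth and by the loss of reads shared between its transcripts.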
